A study of Homo sapiens with 10 samples.

Results

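TCF7, TCF7L1, TCF7L2 and LEF1, the 4 human genes of the TCF/LEF family, and CTNNB1, the gene of beta-catenin, were followed through maps of open chromatin in DLD-1 cells. Some maps came from cells in which the transcription factor GATA6 was targeted by auxin degradation or knockout. The others came from untreated, washed or WT cells. The peaks taken were those of all 10 deposited lists that lay inside the RefSeq body of one of these 5 genes or within 50 kb of either end. By this rule 1158 of 1480571 listed peaks belonged to the 5 genes. Overlapping peaks were merged into regions, separately for each experiment, which gave 92 of 120452 regions in the degron experiment and 110 of 157584 in the knockout experiment. A region counted as called in a library if any peak of that library's list covered 1 bp or more of it.

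The libraries came from DLD-1, an established human colorectal adenocarcinoma line, and were made by ATAC-seq, in which a transposase cuts and tags accessible DNA, with the Omni-ATAC method on 50000 viable cells each. Clones of genotype GATA6-AID-IAA7 carry GATA6 with an auxin-inducible degron, a tag through which the plant hormone auxin (IAA) sends the protein for destruction. They gave the groups AID_wash (treatment label Wash, time label 1 with no unit), AID_aux (+Auxin for 12 h; the protocol names 500 µM IAA) and AID_ctrl (titled ctrl, with +Auxin at 0 h, and taken here as the untreated state of the same line). Cells of genotype GATA6-KO, made by CRISPR/Cas9, formed the group KO, and cells of genotype WT the group WT. There were 2 libraries in each of these 5 groups. The number of clones behind either genotype is not given, and nothing says that the 2 replicates were separate cultures, so the spread between them may be technical. Peak lists do not measure the GATA6 protein, so its removal could not be checked in them.

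TCF/LEF proteins are the DNA-binding partners of beta-catenin at the end of the canonical WNT pathway. Without a WNT signal a destruction complex around APC and AXIN marks beta-catenin for breakdown, and TCF/LEF proteins hold target genes silent together with Groucho/TLE corepressors. With the signal, or when APC is truncated as it is in DLD-1 and most colorectal cancers, beta-catenin enters the nucleus, displaces the corepressors and turns the same genes on. TCF7L2 (also called TCF4) is the main family member of intestinal crypts, TCF7L1 (TCF3) acts mostly as a repressor, and TCF7 (TCF1) and LEF1 are best known from lymphocytes and are switched on in many colorectal tumours. Beta-catenin also ties cadherins to the actin cytoskeleton at cell junctions.

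The upstream DNA of the starts on which the results turn is shown first, since accessibility differed between starts of the same gene. Each line gives the 250 bases before a RefSeq transcription start (GRCh38.p14), read 5′ to 3′ on the strand of the gene. Capitals mark the TCF/LEF motif CTTTGTT or its reverse complement AACAAAG. The windows are chr10:112949997-112950246 and chr10:113126383-113126632 (plus strand) for the first and the second TCF7L2 start, chr5:134123368-134123617 (plus) for the second TCF7 start, chr4:108166302-108166551 (minus) for LEF1 and chr3:41199255-41199504 (plus) for CTNNB1. The LEF1 start used, chr4:108166301, lies inside the gene, whose 5′ end is at chr4:108168932.
TCF7L2 first start: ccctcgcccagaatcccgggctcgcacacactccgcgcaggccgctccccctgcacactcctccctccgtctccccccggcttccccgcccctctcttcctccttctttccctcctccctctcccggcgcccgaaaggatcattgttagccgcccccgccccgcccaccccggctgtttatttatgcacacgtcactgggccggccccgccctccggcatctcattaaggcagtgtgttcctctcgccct
TCF7L2 second start: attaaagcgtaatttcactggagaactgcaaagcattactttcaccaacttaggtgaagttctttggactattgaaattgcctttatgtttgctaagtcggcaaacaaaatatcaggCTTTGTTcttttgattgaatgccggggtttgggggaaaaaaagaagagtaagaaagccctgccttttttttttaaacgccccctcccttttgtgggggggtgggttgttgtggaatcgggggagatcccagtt
TCF7 second start: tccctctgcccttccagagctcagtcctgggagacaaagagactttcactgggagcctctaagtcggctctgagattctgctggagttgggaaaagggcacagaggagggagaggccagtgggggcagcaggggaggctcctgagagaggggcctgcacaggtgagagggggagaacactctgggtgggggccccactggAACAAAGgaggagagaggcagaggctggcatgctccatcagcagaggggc
LEF1: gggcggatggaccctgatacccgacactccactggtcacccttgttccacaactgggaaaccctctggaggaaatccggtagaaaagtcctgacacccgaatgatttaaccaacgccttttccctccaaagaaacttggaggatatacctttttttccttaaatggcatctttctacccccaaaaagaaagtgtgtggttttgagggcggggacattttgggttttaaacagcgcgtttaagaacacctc
CTNNB1: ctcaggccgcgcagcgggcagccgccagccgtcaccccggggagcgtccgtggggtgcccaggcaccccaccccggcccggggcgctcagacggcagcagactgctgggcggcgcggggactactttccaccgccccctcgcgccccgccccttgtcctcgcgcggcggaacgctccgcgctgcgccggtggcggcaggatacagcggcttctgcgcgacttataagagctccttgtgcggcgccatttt

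In all, 8 RefSeq starts of the 5 genes were in the promoter table, and their windows were searched on both strands. The TCF/LEF motif was taken as CTTTGAT, with the variants ending in AA (CTTTGAA) and in TT (CTTTGTT) searched too. The GATA motif was taken as AGATAA, with TGATAA searched as its other form. A TCF/LEF motif stood in 2 of the 8 windows. At the second start of TCF7L2 CTTTGTT occupied the bases 133 to 127 before the start, on the gene's own strand, and at the second start of TCF7 it lay on the opposite strand, at bases 50 to 44. A peak reached the first of these windows in 5 of the 6 degron libraries and in all KO and WT libraries, and the second in none of the 10. No GATA motif stood in any of the 8. Among all 34961 RefSeq windows of this length, 9.97% held at least 1 of the TCF/LEF motifs and 14.6% at least 1 of the GATA motifs, and CTTTGTT alone was in 4.49%. The G and C content was 74.4% at CTNNB1, 68.0% at the first TCF7L2 start and 62.0% at the second TCF7 start. It was 47.6% at the LEF1 start inside the gene and 42.4% at the second TCF7L2 start, where the median of all windows was 58.4%.

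Each of the 5 genes had a region at or close to a RefSeq start that was called in every library. The TCF7 and LEF1 starts in the promoter table lay inside the gene bodies, away from their 5′ ends. Of the 6 merged regions that reached the window from 250 bases before to 50 after a start, each was called by all 6 degron libraries, both KO and both WT libraries. Their strength is given by the authors' fold enrichment, the height of the strongest peak over its local background within one list, which allows a description but no test between lists. CTNNB1 (chr3:41198785-41200358) varied least, with 10.0 and 10.1 in AID_wash, 9.42 and 10.1 in AID_aux and 9.99 and 10.3 in AID_ctrl. TCF7 (chr5:134114073-134115556) had 8.18 and 8.44 in AID_wash, 8.51 and 8.14 in AID_aux and 8.12 and 9.02 in AID_ctrl, and the groups overlapped. This region ended 57 bp before the first TCF7 start, and only the AID_aux replicate 2 peak reached the 250 bases before that start. The middle of the region lay 6596 bp into the gene. No merged region covered the 5′ end of TCF7 (chr5:134108218), and the nearest upstream degron region lay 5880 bp before it. LEF1 had a broad region of 2962 bp over its 5′ end (chr4:108166502-108169463), 201 bp from the start in the promoter table, with 5.08 and 5.35 in AID_wash, 5.80 and 5.26 in AID_aux and 5.14 and 6.16 in AID_ctrl, again overlapping. It also overlapped the coding gene LOC124900752 and the start window of that gene. The region held 50 of the 250 LEF1 bases printed above, and no KO or WT peak reached these. At the 5′ end of LEF1 itself (chr4:108168932), both KO and both WT libraries called chr4:108168557-108169235.

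TCF7L1 had the most enriched start of the 5 genes (chr2:85132834-85133659), at 13.5 and 16.4 in AID_wash, 15.2 and 14.8 in AID_aux and 13.9 and 14.1 in AID_ctrl. Both AID_aux values lay above both AID_ctrl values there, which held for 22.5% of all 62170 regions called in the 6 degron lists and for 8 of the 51 such regions at the 5 genes, so this start did not stand out. TCF7L2 opened from more than 1 start. Its first start (chr10:112949558-112950465) had 5.11 and 6.85 in AID_wash, 7.24 and 6.38 in AID_aux and 4.49 and 6.95 in AID_ctrl. The second start, 176405 bp into the gene (chr10:113126238-113127067), was more enriched than the first in all 6 libraries but one replicate differed strongly from the other in each group: 6.31 and 13.2 in AID_wash, 13.6 and 7.95 in AID_aux and 6.71 and 9.94 in AID_ctrl. The third TCF7L2 start had no region, the nearest ending 2204 bp away, and the nearest to the second TCF7 start lay 858 bp away. No library of the 10 had a peak at either.

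**Figure D1:**
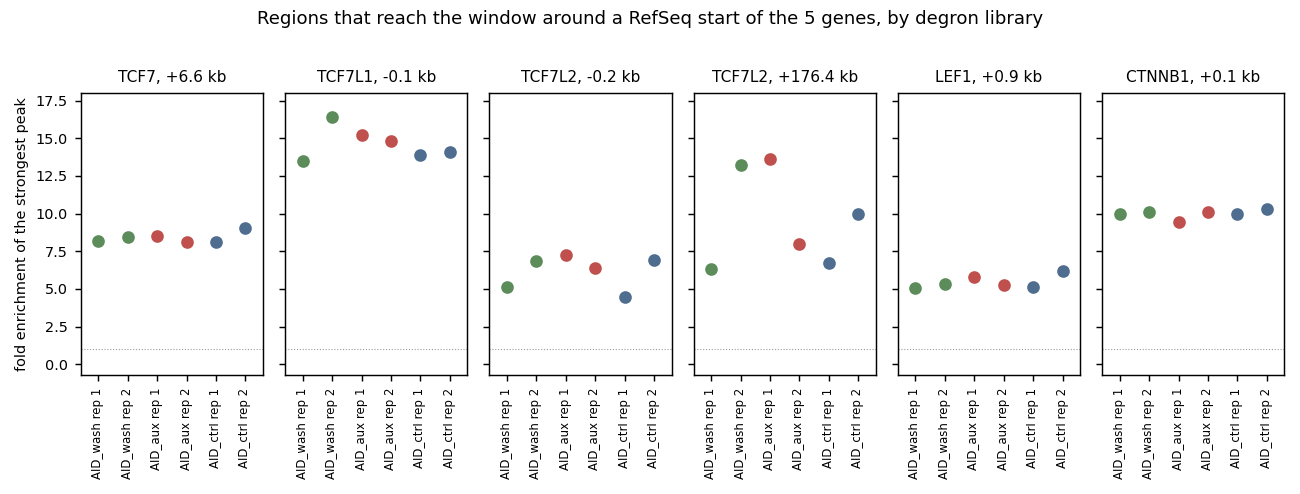
Fold enrichment (authors' value, strongest peak in the region) in each of the 6 degron libraries for the 6 merged regions that reach the window from 250 bases before to 50 after a RefSeq start (the TCF7 and LEF1 regions stop 57 and 201 bp short of the start itself); panels give the distance of the region's middle from the 5′ end of the gene, and the dotted line marks an enrichment of 1. Every library has a point in every panel, and the spread between the 2 replicates is widest at the second TCF7L2 start, 6.31 to 13.6 over the 6 libraries.

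Many regions around the genes were called throughout. Of the 92 degron regions, 51 were called by all 6 degron libraries and 41 by all 10 libraries. Over the genome 62170 of 120452 degron regions (51.6%) were called by all 6 and 45302 (37.6%) by all 10. TCF7 and CTNNB1 were the most constant, with 10 of 13 and 5 of 8 regions called by all 10 libraries, against 8 of 23 at TCF7L1, 13 of 33 at TCF7L2 and 5 of 15 at LEF1. Inside gene bodies lay 54 of the 92 regions, 21 lay upstream and 17 downstream, and 19 overlapped another coding gene. TCF7 shared most of its surroundings: 9 of its 13 regions overlapped VDAC1, a mitochondrial outer membrane channel, or SKP1, a subunit of SCF ubiquitin ligases. TCF7L2 shared none of its 33 regions, and 27 of them lay within its own body.

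The strongest elements of each locus also stayed open throughout. Downstream of CTNNB1, inside the neighbouring kinase gene ULK4, chr3:41267678-41268863 had 16.5 and 20.6 in AID_wash, 18.8 and 17.1 in AID_aux and 18.7 and 16.0 in AID_ctrl, above the CTNNB1 start in every library. A second ULK4 element, chr3:41274585-41275896, had 14.6 to 16.8 over the 6 libraries. Within TCF7L1, chr2:85285145-85285957 had 18.1 and 18.1 in AID_wash, 15.0 and 15.9 in AID_aux and 20.4 and 17.4 in AID_ctrl. Its AID_aux values were both below its AID_ctrl values, as at 15.8% of all regions called in the 6 lists. The other leading regions in the TCF7L1 window covered the starts of TGOLN2, a trans-Golgi protein, and jointly of ELMOD3 and RETSAT, at 13.1 to 20.5 and 14.9 to 17.7.

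The TCF7L2 window was led by an upstream element, chr10:112915384-112916655, with 11.6 and 10.8 in AID_wash, 12.2 and 11.0 in AID_aux and 14.0 and 10.0 in AID_ctrl, where the groups overlapped. Intragenic elements at chr10:113106900-113107736 and chr10:112981295-112982089 ranged over 8.78 to 10.7 and 6.17 to 12.2. TCF7 was led by chr5:134184077-134185070, 35867 bp beyond its 3′ end, at 10.7 to 13.3. Next to it in strength were chr5:134058474-134059675 (6.95 to 13.7) and chr5:134092337-134093880 (6.70 to 12.7), both in VDAC1.

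At LEF1 both washed libraries had the fewest calls. Of its 15 regions AID_wash called 10 and 10, AID_aux 14 and 12, and AID_ctrl 11 and 13, so both AID_wash counts lay below the other 4. The same held at 6.7% of the 10426 coding genes with 10 or more degron regions and at none of the other TCF/LEF genes. An element within LEF1, chr4:108058535-108059540, had 6.73 and 7.10 in AID_wash, 12.5 and 12.0 in AID_aux and 12.6 and 10.0 in AID_ctrl. Both AID_wash values were below the other 4 there, as at 11.8% of all regions called in the 6 lists and at 7 of the 51 at the 5 genes. The remaining leading LEF1 elements overlapped between groups: chr4:108045012-108046481, 1067 bp past the 3′ end, had 9.85 to 13.9, and chr4:108117395-108119066, in the gene, had 7.35 to 8.65. The AID_wash lists held 154537 and 180018 peaks, the AID_aux lists 199036 and 173618 and the AID_ctrl lists 191535 and 179405. Replicate 1 of AID_wash was thus the shortest list. Replicate 2 was shorter than replicate 1 and longer than replicate 2 of either other group. Whether list length set the LEF1 counts was not tested. With 2 libraries a group no permutation test can give less than p = 0.33.

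**Figure D2:**
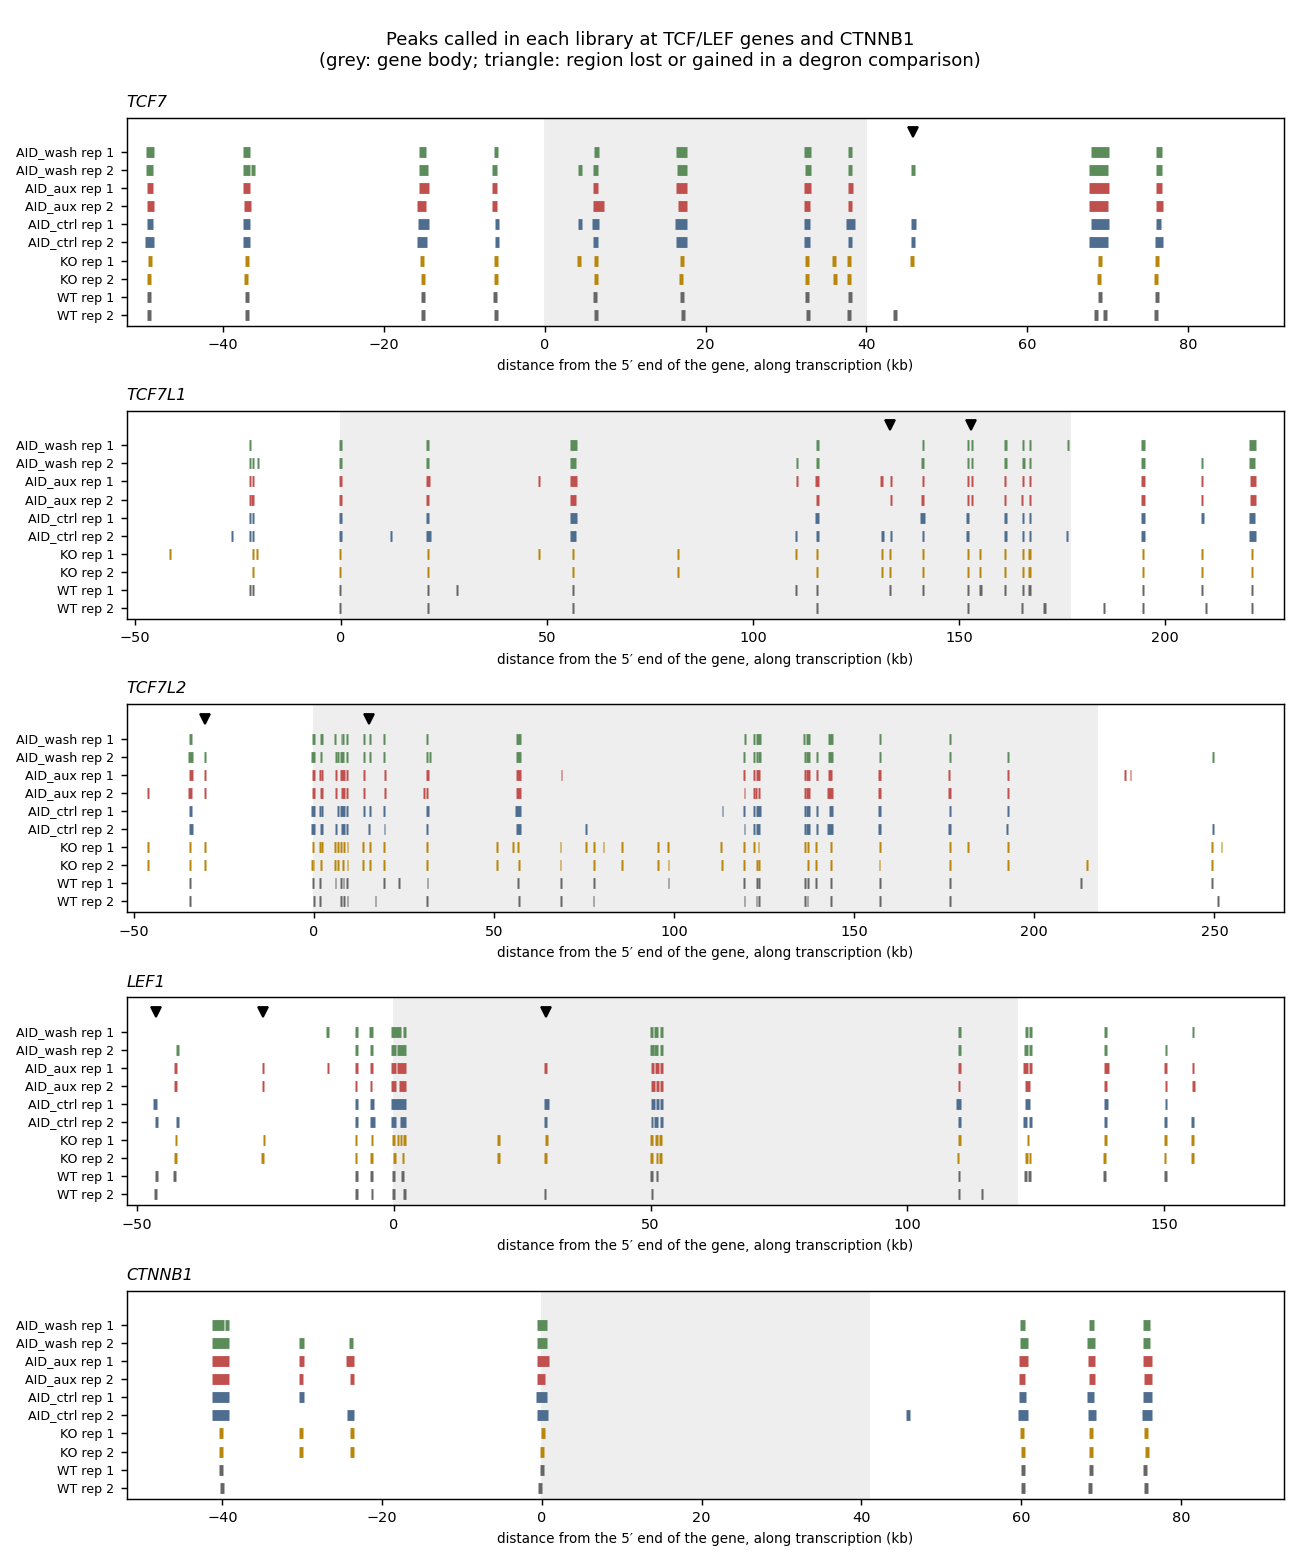
Peaks called in each of the 10 libraries (rows) over the 5 genes and 50 kb on either side; the horizontal axis is the distance in kb from the 5′ end of the gene along transcription, grey marks the gene body and triangles the 8 regions lost or gained in a degron comparison. Of the 92 degron regions 41 have bars in all 10 rows, and KO rows carry more bars inside TCF7L2 than WT rows.

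Auxin for 12 h changed the call of 6 of the 89 regions that at least 1 of the 4 libraries called. A region is named lost if it was called in both AID_ctrl libraries and in neither AID_aux library, gained if the calls were the other way round, and retained if it was called in all 4. At the 5 genes 3 regions (3.37%, 95% Wilson interval 1.15 to 9.45, counting error only) were lost, where 2.36% were lost genome-wide, and 3 (3.37%) were gained, where 2.58% were. Another 55 (61.8%) were retained, against 59.6% over the genome. LEF1 and TCF7L2 each had 1 lost and 1 gained region, TCF7 1 lost, TCF7L1 1 gained and CTNNB1 neither. At TCF7, AID_aux called 10 and 10 of 13 regions and AID_ctrl 12 and 11, so the groups did not overlap, as at 6.39% of coding genes with 10 or more regions. The counts are close to the genome's shares and are no result about these genes as a group.

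The lost LEF1 region had no call with auxin, after the wash or in the knockout. It lay at chr4:108214890-108215701, 45958 bp upstream of LEF1, and was called in AID_ctrl alone among the degron libraries, at an enrichment of 4.02 and 4.05, with no call in either AID_wash or either AID_aux library. Neither KO library called it and both WT libraries did. Of the 2729 regions lost with auxin over the genome, 215 (7.88%) were lost in KO as well, and 14 (0.513%) were in addition called by neither AID_wash library. The peak was weak, with a −log10 p of 6.15 and 5.46, in the lowest 10.0% and 3.5% of its lists. It was also the outermost upstream region that the 50 kb rule admitted at LEF1. The next one, chr4:108224692-108224963, lay outside at 55760 bp.

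The gained LEF1 region was gained with auxin and in the knockout alike. At chr4:108194263-108194643, 25331 bp upstream of the gene, AID_aux had 6.48 and 4.37, while no AID_wash and no AID_ctrl library called it. In the knockout experiment both KO libraries called it and neither WT library did. Over the genome 37.1% of the 2974 regions gained with auxin were also gained in KO, and 50.8% were called by neither AID_wash library, so both features were common.

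At TCF7L2 the auxin gain lay 30116 bp upstream, at chr10:112919782-112920131, where AID_wash had 3.40 in replicate 2 and no call in replicate 1, AID_aux 4.50 and 3.73, and AID_ctrl no call. KO gained it too. The auxin loss lay inside the gene, 15418 bp from its 5′ end, at chr10:112965350-112965980. AID_wash had 3.47 and 2.90 there, AID_aux no call, and AID_ctrl 3.19 and 3.50, so the call was back after the wash. In the knockout experiment this region went the other way: both KO libraries and neither WT library called it. Of the regions lost with auxin, 32.4% were called by both AID_wash libraries, 14.9% were gained in KO and 2.6% were both.

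The TCF7 loss and the TCF7L1 gain completed the set. The TCF7 region, chr5:134153765-134154387, lay 5555 bp beyond the gene and inside SKP1, and had 4.35 in AID_wash replicate 2 and no call in replicate 1, no call in AID_aux, and 5.23 and 4.49 in AID_ctrl. One KO library and no WT library called it. The TCF7L1 region, chr2:85286245-85286499, lay in the gene beside the strong element described above. It had 5.73 and 3.01 in AID_wash, 3.71 and 3.87 in AID_aux and no call in AID_ctrl, and no KO or WT library called it. Over the genome 9.78% of the regions gained with auxin were called by both AID_wash libraries.

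All the changed regions were weak. Over the 8 regions changed in any comparison within the degron line, the −log10 p of the calls had a median of 6.55 (5.19 to 12.9) and the fold enrichment one of 4.28 (2.90 to 6.48), near the lowest listed −log10 p of 5. The 51 regions called in all 6 degron libraries had medians of 33.0 (5.92 to 154) and 8.23 (2.30 to 20.6). The changed regions had a median length of 502 bp and the constant ones of 1050 bp. A region called in all 6 libraries cannot be lost or gained, so this contrast follows in part from how the regions were picked. The files hold no counts, so depth is unknown, and a region without a call may be open below the calling threshold. None of the 8 changes held among the top 50% of each list, and with all degron lists held to the length of the shortest the TCF7 loss and the TCF7L2 gain at 112919782 were the ones that remained.

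**Figure D3:**
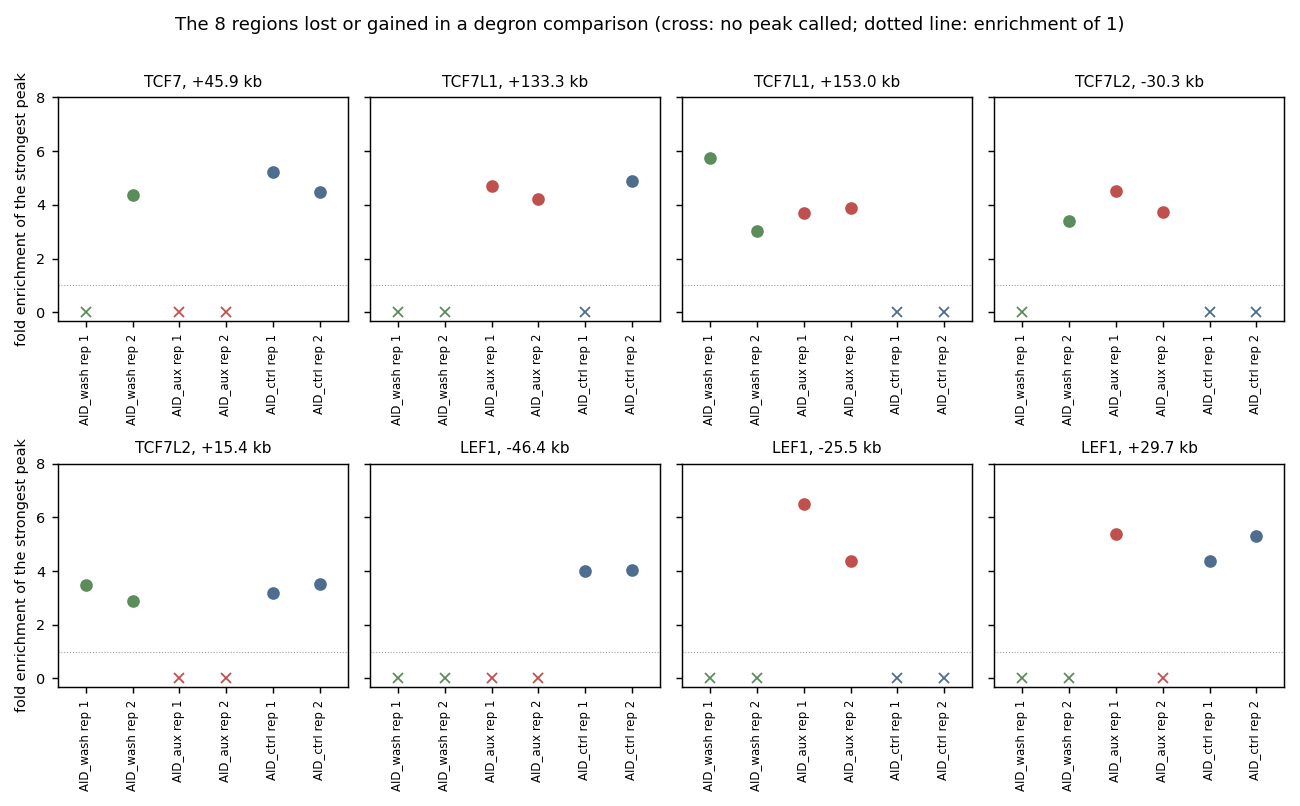
Fold enrichment (authors' value) in each degron library for the 8 regions lost or gained in a comparison within the degron line, named by the distance of the region's middle from the 5′ end of the gene; a cross at 0 stands for no call and the dotted line for an enrichment of 1. All points lie between 2.90 and 6.48, and the LEF1 region 45958 bp upstream of the gene has points in AID_ctrl alone.

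After the wash, few calls differed from either other state. Against AID_aux, 2 of 86 regions (2.33%, interval 0.64 to 8.09) were lost, where 3.48% were over the genome, and 1 (1.16%) was gained, where 1.21% were. The losses were the LEF1 region gained with auxin and an intragenic TCF7L1 region, chr2:85266552-85266769, with no call in AID_wash, 4.71 and 4.20 in AID_aux, and 4.88 in AID_ctrl replicate 2 alone. The gain was the TCF7L2 region lost with auxin. Against AID_ctrl, 2 of 85 regions (2.35%) were lost, where 2.67% were over the genome, and both were at LEF1. One was the upstream region described above. The other, chr4:108138794-108139668 inside the gene, had no call in AID_wash, 5.38 in AID_aux replicate 1 and no call in replicate 2, and 4.39 and 5.29 in AID_ctrl. The 1 gained region (1.18%, genome 0.685%) was the TCF7L1 region that auxin had also gained. Retained were 54 regions (62.8%) against AID_aux, where the genome retained 57.4%, and 52 (61.2%) against AID_ctrl, where it retained 60.0%. In the top 50% of each list the losses were 4 of 50 regions (8.0%) against AID_aux (genome 3.46%) and 3 of 51 (5.88%) against AID_ctrl (genome 2.86%). None of the losses named above was among them. These 2 comparisons share the AID_wash libraries, and each shares its other libraries with the comparison of auxin.

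The knockout lists showed many more gains than losses, at these genes as elsewhere. They give coordinates of 500 bp windows with no enrichment. Of the 110 regions, KO called 95 and 83 and WT 69 and 56. KO gained 19 (17.3%, interval 11.3 to 25.4), where 19.5% were gained over the genome, and lost 1 (0.909%), where 1.24% were lost, and 44 (40.0%) were retained, where 31.9% were. The KO lists held 130807 and 116626 peaks and the WT lists 93104 and 66078. The length of the lists and the genotype therefore cannot be told apart for these gains.

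TCF7L2 held 10 of the 19 gained regions, LEF1 4, TCF7L1 2, CTNNB1 2 and TCF7 1, and the 1 lost region was that of LEF1. Of the 43 knockout-experiment regions at TCF7L2, KO called 37 and 32 and WT 24 and 19, without overlap between the groups. At LEF1 KO called 17 and 16 of 19 and WT 12 and 9, and at CTNNB1 7 and 7 of 7 against 5 and 5. Counted over the degron regions, both KO libraries were above both WT libraries at 72.0% of coding genes with 10 or more regions, LEF1 and TCF7L2 among them. At TCF7 (13 and 11 in KO, 10 and 12 in WT) and TCF7L1 (21 and 17 in KO, 18 and 11 in WT) the counts overlapped.

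Of the 10 TCF7L2 gains 8 lay in the gene. Of these 3, at chr10:113000825-113001339, chr10:113035516-113036140 and chr10:113045512-113046096, were called by no degron library. The one at chr10:112963721-112964221 was called by 5 degron libraries and that at chr10:113142709-113143220 likewise by 5, while neither WT library called them. The WT lists held 93104 and 66078 peaks and the degron lists 154537 to 199036. List length and cell line therefore cannot be told apart here. Weaker support in the degron line came for chr10:112956601-112957103 (2 libraries), chr10:113063127-113063734 (1) and the upstream chr10:112903943-112904497 (1). Over all 5 genes 6 of the 19 gains (31.6%) were called by no degron library, where 41.1% of the genome's gains were, and 1, chr4:108116697-108117200 in LEF1, was called by all 6 (genome 10.5%). The 2 CTNNB1 gains lay 29952 and 23544 bp upstream, at chr3:41169050-41169553 and chr3:41175425-41175961, and 4 degron libraries called each. LEF1 also gained chr4:108013184-108013712, in the HADH gene, called by 4 degron libraries, and chr4:108148270-108148802, in its own body, called by none. TCF7L1 gained chr2:85264486-85265007 (2 degron libraries) and chr2:85215002-85215522 (none), and TCF7 gained chr5:134143995-134144529 (none), all 3 in the gene bodies.

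**Figure D4:**
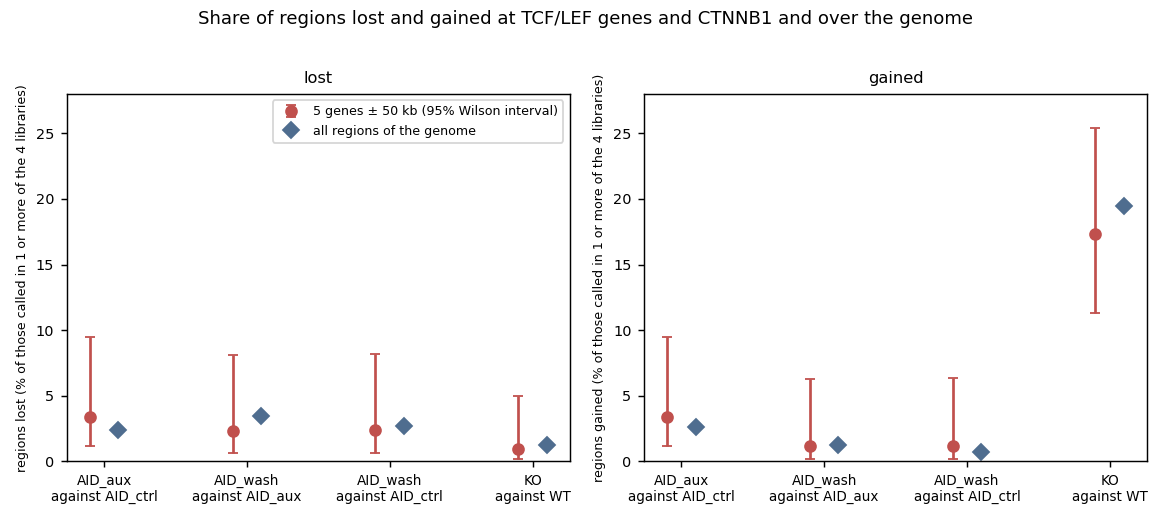
Percent of regions lost (left) and gained (right) in each of the 4 comparisons, for the 5 genes with 50 kb on either side (circles, with 95% Wilson intervals for counting error) and for all regions of the genome (diamonds); regions called in 1 or more of the 4 libraries are counted. The genome's value lies within the interval of the 5 genes in all 8 cases, from 0.909% beside 1.24% for KO losses to 17.3% beside 19.5% for KO gains.

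The share of each library's called regions that lay at the 5 genes ran from 7.22 per 10000 in KO replicate 2 to 8.77 in WT replicate 2. Per 10000 called regions, 7.91 ± 0.109 lay at these genes in AID_aux and 7.87 ± 0.707 in AID_ctrl (SD, n = 2 each; exact permutation test, two-sided, p = 1.0). AID_wash had 8.05 ± 0.011, against 7.91 ± 0.109 in AID_aux (exact permutation p = 0.33) and 7.87 ± 0.707 in AID_ctrl (exact permutation p = 1.0). KO had 7.28 ± 0.0919 and WT 8.20 ± 0.800 (exact permutation p = 0.33), lower in both KO libraries than in either WT library. The smallest p that 2 libraries against 2 allow is 0.33, so none of these 4 tests could have passed a threshold.

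The rest of the WNT pathway was counted with 80 genes in 5 lists that were drawn up with earlier results of these data known. With auxin 17 of the 80 genes had at least 1 lost region in their 50 kb window, where 17.5% of all coding genes had, and 22 had a gained one, where 20.5% had. By regions, 1.96% were lost and 2.24% gained at the 80 genes, where 1.91% and 2.28% were at all coding genes. Among 25 ligand and receptor genes 5 had a lost and 6 a gained region, led by WNT3, a ligand of the crypt niche, with 2 gained of 13. Of 16 genes of the destruction complex and signal relay 5 had a lost and 2 a gained region. DVL1, which relays the signal from the receptor, had 2 lost of 19, and FBXW11, a ubiquitin ligase subunit that recognises phosphorylated beta-catenin, 2 lost of 10. Of 14 feedback and secreted inhibitors 1 had a lost region and 7 a gained one, with 2 gained of 26 at ZNRF3, a ligase that clears WNT receptors from the membrane.

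Among 19 nuclear cofactors and corepressors 3 genes had a lost and 6 a gained region after auxin. CTBP2 lost 2 of 26 regions and TBL1XR1 2 of 15, both genes of corepressor complexes. CTBP2 also gained 2 of 25 in AID_wash against AID_aux. Of 6 junction partners of beta-catenin 3 had a lost and 1 a gained region, with 1 each of 12 at CDH2, the N-cadherin gene. In AID_wash against AID_aux 23 of the 80 genes had a loss (25.0% of coding genes) and 7 a gain (9.87%), and against AID_ctrl 17 (19.4%) and 7 (6.38%). WNT5A, a ligand that often signals without beta-catenin, lost 2 regions in each of these comparisons. In KO against WT 15 genes had a loss (14.0% of coding genes) and 69 a gain (83.5%), with 8 gained regions each at TBL1X and CDH2, and 2 lost and 2 gained at AXIN2, the scaffold gene that is itself a standard TCF target. By regions, AID_wash lost 2.58% and gained 0.766% against AID_aux at the 80 genes (all coding genes 2.93% and 1.04%). Against AID_ctrl it lost 2.06% and gained 0.688% (2.23% and 0.674%). KO lost 1.34% and gained 14.7% against WT (1.25% and 17.1%). No difference between the 80 genes and all coding genes was tested.

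By the share of regions called in each of the 10 libraries, over 10420 to 10425 other coding genes with 10 or more regions, TCF7L2 was most like ADAR, with a root mean square difference of 2.89 percentage points. LEF1 was most like RSPH6A (3.65), CTNNB1 most like CHSY1 (3.95), TCF7L1 most like MGLL (4.72) and TCF7 most like HLA-E (4.94). TCF7L2 itself had 60.6% and 75.8% of its 33 regions called in AID_wash, 75.8% and 69.7% in AID_aux, 69.7% and 69.7% in AID_ctrl, 87.9% and 78.8% in KO and 57.6% and 45.5% in WT. These profiles move with the length of the lists, which all genes share.

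As a check of the cell type label, a peak lay near the start or end of 9 to 11 of 11 colorectal epithelial genes in each library, 8 of them in all 10. The ends of fibroblast and endothelial genes had peaks for 1 to 2 of 6, and of liver, muscle and neuron genes for 2 to 3 of 6. COL3A1, PDGFRB and VWF had none in any library, and PTPRC, a marker of blood cells, had 1 in KO replicate 2 alone. A peak within 1000 bp of a gene end can belong to a neighbouring gene.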

How the data were processed

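The deposited data are 10 peak lists, 1 per library. Per the submitters' processing notes the tools were MACS2 2.1.1, Bowtie2 2.4.2, Trim Galore 0.6.10 and Picard, and the build hg38; settings and any shift for the transposase are not stated there. The 6 deposited degron lists hold a line per summit, with a score (the −log10 p times 10 without its decimals, at most 1000), a ratio (the fold enrichment), the −log10 p and −log10 q and the summit. The 4 deposited KO and WT lists hold coordinates of 500 bp windows. Without counts depth is unknown, and the authors' values describe peaks within a list.

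On chromosomes 1 to 22 and X, overlapping or adjoining peaks were merged, over the 6 degron lists or the 4 KO and WT lists. Genes and promoter sequences are RefSeq GRCh38.p14, and all 5 genes matched. Regions are not replicates, so shares carry Wilson intervals at 95% and no p. The region rate was compared by exact permutation over libraries. Regions were named when lost or gained in a degron comparison, when at a start window, when among the 3 most enriched of a gene, or when changed in KO (5 per gene with the most degron calls, beside those changed in the degron line); the 3 TCF7L2 gains called by no degron library, the counts at LEF1 after the wash and the backgrounds of groups that do not overlap were singled out after their values were seen. The genes and lists were chosen with earlier results of these data known. Alternatives were a call needing 50% cover, a 500 bp grid, a 20 kb flank, merging over all 10 lists, the top 50% of each list, equal list lengths, and leaving out each library. Scripts were tested on simulated data. Python 3.11.15, pandas 2.3.3 and scipy 1.17.1 were used. No file was left out.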

Additional observations from a re-analysis of the deposited data

Results flagged for a closer look

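One region went in opposite directions in the degron and the knockout of GATA6 removal. The region inside TCF7L2 at chr10:112965350-112965980 was lost in AID_aux against AID_ctrl and gained in KO against WT. Its degron calls were weak, with a −log10 p of 5.19 to 6.39. The loss did not hold with equal list lengths, and the KO lists were longer than the WT lists. The difference between the comparisons was not tested. Of the 2729 regions lost with auxin over the genome, 406 (14.9%) were gained in KO.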

How the results depend on the processing

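No paired analysis was possible because the shares come from no test and replicate numbers name libraries without pairing them. Merging over all 10 lists and the 500 bp grid kept every share at the 5 genes within its interval. AID_wash against AID_aux gained 0.0% in place of 1.16% with 50% cover (genome 1.84%), in the top 50% of each list (genome 1.52%) and with equal list lengths (genome 2.3%), AID_wash against AID_ctrl gained 0.0% in place of 1.18% with equal lengths (genome 1.47%), and KO lost 0.0% in place of 0.909% with a 20 kb flank (genome 1.24%), which leaves out the LEF1 region at 45970 bp. Other shares that moved by over 1.5 times were, with 50% cover, AID_aux gained 5.62% (genome 3.24%), AID_wash lost 7.14% against AID_aux (5.01%) and 6.02% against AID_ctrl (4.65%), and AID_wash gained 3.61% against AID_ctrl (1.02%). In the top 50% of each list AID_aux lost 2.08% (2.96%) and gained 2.08% (2.33%). AID_wash lost 8.0% (4 of 50 regions) against AID_aux (3.46%) and 5.88% (3 of 51) against AID_ctrl (2.86%), and gained 1.96% against AID_ctrl (0.531%). With equal lengths AID_aux lost 1.35% (2.7%) and AID_wash lost 1.37% against AID_ctrl (1.59%), with the 20 kb flank AID_aux gained 1.52% (2.58%), and on the grid AID_aux lost 2.24% (2.85%) and KO lost 1.67% (2.08%). With the 20 kb flank the region rate of AID_aux minus AID_ctrl was -0.258 in place of 0.0394 per 10000.

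Leaving out 1 library makes lost and gained calls easier by construction, over the genome too; the genome's share beside each highest value is given after it. The shares ranged as follows: AID_aux against AID_ctrl 3.45 to 10.5% lost (highest without AID_ctrl replicate 1, genome 6.49%) and 5.95 to 9.64% gained (highest without AID_ctrl replicate 2, genome 5.06%), AID_wash against AID_aux 4.71 to 12.7% lost (without AID_wash replicate 2, genome 11.5%) and 1.19 to 9.41% gained (without AID_wash replicate 1, genome 6.75%). AID_wash against AID_ctrl had 3.57 to 9.52% lost (without AID_ctrl replicate 1, genome 8.32%) and 2.38 to 5.95% gained (without AID_wash replicate 1, genome 6.94%), and KO against WT 1.83 to 8.49% lost and 19.6 to 34.0% gained (both highest without WT replicate 1, genome 7.39% and 37.5%). The rate difference ranged over -0.461 to 0.54 for AID_aux minus AID_ctrl, below 0 without AID_ctrl replicate 1 (-0.461) and without AID_aux replicate 2 (-0.0374), over 0.0689 to 0.223 for AID_wash minus AID_aux, over -0.315 to 0.685 for AID_wash minus AID_ctrl (-0.315 without AID_ctrl replicate 1) and over -1.49 to -0.354 for KO minus WT. The cause was not tested.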
